A study of Oryza sativa with 12 samples.

Results

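*OsWOX4*, *QHB*, *WOX6* and *WOX7* are WOX homeobox genes of rice (*Oryza sativa*). They were chosen as the WOX genes that the annotation of the array pairs with a row of their own, by symbol or synonym. They are 4 of the 15140 genes with such a row and have 1 row each among the 54922 rows of the table. *QHB* also goes by *OsWOX9*, *WOX9* and, in some tables, *WOX5*, and *OsWOX4* also by *WOX4*. Of the 8 genes named as WOX in the reference gene table used for names, those with the symbols *WOX5*, *WOX8*, *WOX10* and *WOX11* had no row found by this rule and were not analysed here. This does not mean that the array lacks other WOX genes. The study printed array levels for several of them, such as *TAB1*, *OsWOX3* and *OsWOX13*, and for *QHB*, which was already higher there with DEX at 12 h.

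The samples were shoot apices, with the SAM and leaf primordia, of seedlings 5 days old. There were 4 groups of 3 arrays, each array from a biological replicate: plants given 10 μM DEX for 3 h, their mock-treated counterparts at 3 h, plants given 10 μM DEX for 12 h, and mock-treated plants at 12 h. All groups, mock included, carried *pACT1-GVG>OsWOX4:RNAi* in the Taichung 65 background. In this construct the *ACT1* promoter drives GVG, a transcription factor that responds to the synthetic glucocorticoid dexamethasone (DEX) and, once activated, drives an RNAi transcript against *OsWOX4*. No array of DEX-treated plants without the construct was analysed here, so effects of DEX, of GVG and of *OsWOX4* silencing cannot be told apart. The tissue was not confined to 1 cell type, and a higher signal from more cells of a type cannot be told apart from more RNA per cell.

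WOX proteins are plant transcription factors with a homeodomain that binds DNA. Members of the family help to keep stem cells undifferentiated in the meristems of shoot, root and vascular tissue, often in circuits with CLE peptides, their receptor kinases and cytokinin. *OsWOX4* acts in maintenance of the rice SAM and in leaf development, and its *Arabidopsis* counterpart acts in the vascular cambium. *QHB* is known as a gene of the quiescent center of the rice root, the counterpart of *Arabidopsis WOX5*. *WOX6* has been connected with shoot gravitropism and tiller angle in rice.

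The deposited values are log2 signals, and a signal below is 2 raised to that value, in arbitrary units. The signals of different rows cannot be set against each other as transcript levels, because probes differ in brightness. The place of a row among all rows of its own array is given only to say how dim it was. A log2 fold change is DEX minus mock unless another order is given. A gene is said to have risen or fallen only at an adjusted p under 0.05 in limma, after Benjamini-Hochberg adjustment over all rows.

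In apices treated with DEX for 12 h, the signal of *QHB* was 15.1 times that of mock-treated apices, where the row was dim, and the signal of the *OsWOX4* row 2.90-fold. The signal of *WOX7* was 1.23 times that of mock, by a call that was lost without some single arrays, and *WOX6* did not pass the test. After 3 h only the *OsWOX4* row, of these 4 genes, passed the test. The plot of signals by array shows each value.

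**Figure D1:**
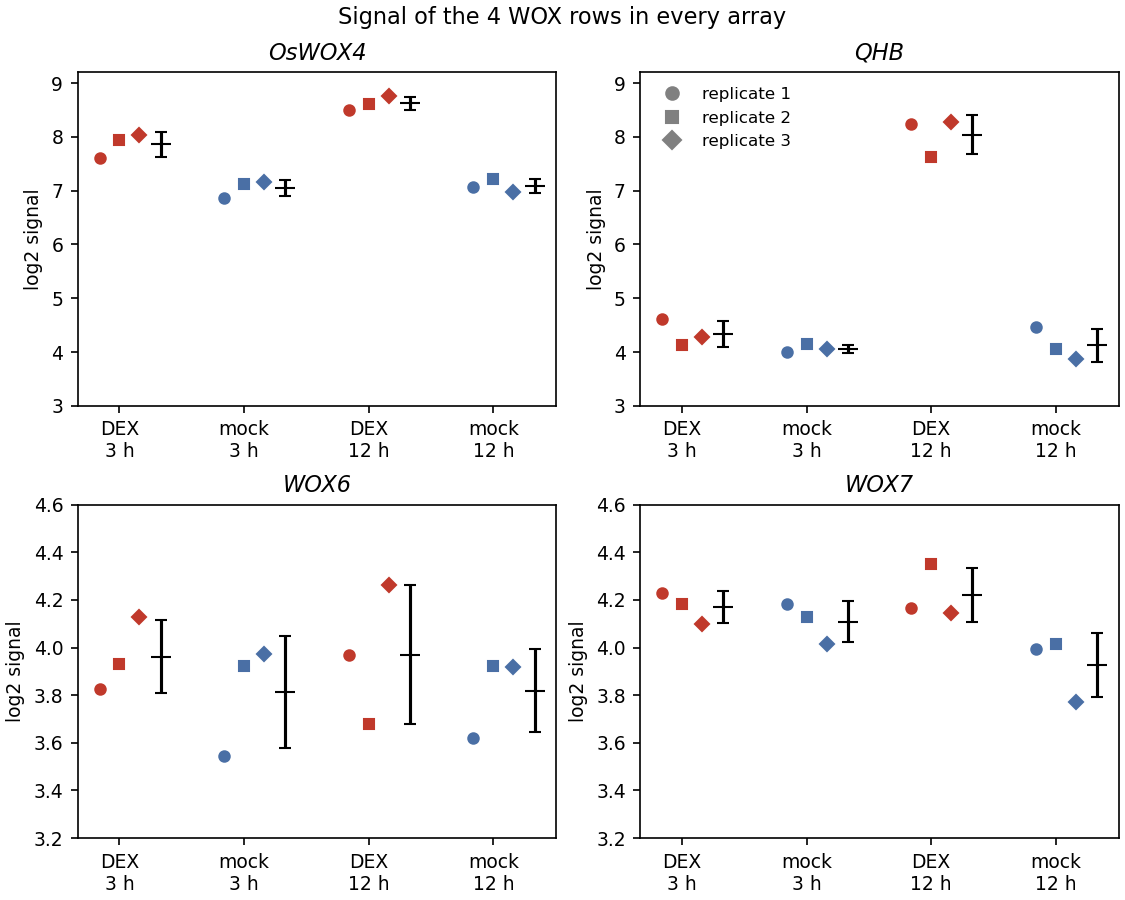
Log2 signal (vertical axis) of each WOX gene in the 12 arrays, by treatment and time (horizontal axis); symbols mark replicate numbers, and the black bar is the mean with its SD (n = 3). The upper panels share a wider axis than the lower ones. *QHB* stood high only in the arrays labelled DEX at 12 h, whereas the *WOX6* arrays overlapped between all groups.

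*OsWOX4*, the target of the RNAi construct, gave signals of 194, 245 and 262 in the arrays labelled DEX at 3 h, against 117, 139.7 and 142 with mock treatment. Every DEX array lay above every mock array at this time, as in 5.21% of all rows. At 12 h the signals were 364, 389 and 432 with DEX and 134, 149 and 125 with mock treatment. The DEX arrays again lay above all mock arrays, as in 20.2% of all rows at 12 h. The row may read the RNAi transcript along with the endogenous mRNA, and the position of its probes relative to the RNAi fragment was not used here. By themselves these signals therefore check neither silencing nor the labels. The study assayed *OsWOX4* mRNA by RT-PCR after 12 h of DEX. From its arrays it reported that, among WOX genes, the construct lowered only *OsWOX4*. Its printed array levels of WOX genes do not include *OsWOX4*. Among the genes that it followed by in situ hybridization are *LOGL3*, *LOGL10* and *DL*, which it reported as reduced there and on these same arrays. The in situ work also covered *OsMP* and *OsPNH1*, reported as unaffected, and *PHB3*, *HISTONE H4* and *CDKB2*, reported as reduced. In these arrays at 12 h, *LOGL3* had a log2 fold change of -2.28, *LOGL10* one of -1.76 and *DL* one of -1.44, at adjusted p = 2.19e-07, 3.43e-07 and 4.81e-06 in limma.

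The mean signal of *OsWOX4* was 234 ± 35.2 with DEX and 133.0 ± 13.9 with mock treatment at 3 h (SD, n = 3 each). This was 1.75-fold, a log2 fold change of 0.81 (SE 0.13, 95% interval 0.51 to 1.10, adjusted p = 0.0372 in limma). At 3 h, 0.24% of all rows passed the same test upwards and 0.00364% downwards. The 3 h call was not stable. When the 6 arrays of 3 h were fitted alone the adjusted p was 0.324. Omission of DEX replicate 1 of 3 h gave 0.0292, and omission of any other array ended the call (0.0559 to 0.173).

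At 12 h the mean signal of *OsWOX4* was 395 ± 34.5 with DEX and 136 ± 12.2 with mock treatment (SD, n = 3 each). On the log2 scale the difference was 1.54 (SE 0.13, 95% interval 1.24 to 1.83, adjusted p = 3.27e-06 in limma), which is 2.90-fold. At 12 h, 14.9% of all rows passed upwards and 28% downwards. The effect at 12 h exceeded that at 3 h by 0.73 on the log2 scale (95% interval 0.31 to 1.15, adjusted p = 0.0134), and 10.4% of rows had a difference of effects that passed in this direction. Within DEX-treated apices the row was 0.76 higher on the log2 scale at 12 h than at 3 h (adjusted p = 0.000629), whereas mock arrays of 12 h and 3 h differed by 0.04 (95% interval -0.26 to 0.33, adjusted p = 0.950). The DEX arrays of 12 h lay wholly above those of 3 h, as in 22.5% of all rows. Between the mock groups limma called 0% of the rows, and 5614 rows had an unadjusted p under 0.05. The order of the groups from low to high was thus mock at 3 h, mock at 12 h, DEX at 3 h and DEX at 12 h, and only the mock groups overlapped.

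*QHB* was dim in 9 of the 12 arrays and bright in the other 3. Its signals were 303, 196 and 308 in the arrays labelled DEX at 12 h, against 22.1, 16.6 and 14.6 with mock treatment. The lowest DEX array was replicate 2, and it was still far above the highest mock array. A separation in this direction, of any size, was found in 20.2% of all rows at 12 h. At 3 h the signals were 24.4, 17.5 and 19.3 with DEX and 16.0, 17.7 and 16.6 with mock treatment. Here the groups overlapped, with DEX replicate 1 the highest of the 6 arrays.

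The mean signal of *QHB* at 12 h was 269 ± 63.2 with DEX and 17.7 ± 3.85 with mock treatment (SD, n = 3 each). On the log2 scale the difference was 3.91 (SE 0.20, adjusted p = 6.66e-08 in limma), a ratio of signals of 15.1 with a 95% interval of 11.1 to 20.5. No detection call was used, and the mock signals were not shown to lie above background, so this ratio is one of array signals and does not give the fold of the transcript. The effect at 12 h exceeded that at 3 h by 3.64 on the log2 scale (95% interval 3.02 to 4.27, adjusted p = 5.58e-06). Within DEX-treated apices, the log2 signal of *QHB* was 3.71 higher at 12 h than at 3 h (adjusted p = 1.10e-07). Rows that passed this last comparison upwards were 18.8% of all.

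At 3 h the *QHB* difference was 0.27 on the log2 scale (SE 0.20, 95% interval -0.17 to 0.71, adjusted p = 0.988 in limma). The mock groups, 12 h against 3 h, differed by 0.06 (95% interval -0.38 to 0.50, adjusted p = 0.939). Only the DEX group of 12 h stood apart from its neighbor in the order of means. Its place within an array was the 80.3 to 86.0 percentile of rows in the DEX group of 12 h and the 15.3 to 28.2 percentile in the other 9 arrays, where a dim signal cannot show whether a little transcript was present.

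*WOX6* gave signals of 15.7, 12.8 and 19.2 with DEX at 12 h and 12.3, 15.2 and 15.1 with mock treatment. At 3 h they were 14.2, 15.2 and 17.5 with DEX and 11.7, 15.2 and 15.7 with mock treatment. The groups overlapped at both times, and neighbors in the order of means overlapped throughout. The difference at 12 h was 1.11-fold (95% interval 0.858 to 1.44, adjusted p = 0.514 in limma), and at 3 h it was also 1.11-fold (95% interval 0.857 to 1.43, adjusted p = 0.9998). The intervals cover the difference of signals on a dim row and leave changes in either direction open.

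*WOX7* gave signals of 18.0, 20.4 and 17.7 with DEX at 12 h, against 16.0, 16.1 and 13.7 with mock treatment. The arrays did not overlap, as in 20.2% of all rows in this direction. The log2 difference was 0.29 (SE 0.10, 95% interval 0.07 to 0.52, adjusted p = 0.0368 in limma) on a dim row, a ratio of signals of 1.23. This call was lost without mock replicate 3 of 12 h (adjusted p = 0.147), without DEX replicate 1 (0.0527) and without DEX replicate 2 (0.127). It was also lost when the arrays of 12 h were fitted alone (0.0926) and with a variance trend on brightness (0.110).

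At 3 h *WOX7* had signals of 18.8, 18.2 and 17.1 with DEX and 18.2, 17.5 and 16.2 with mock treatment, which overlapped. The difference was 0.06 on the log2 scale (95% interval -0.16 to 0.29, adjusted p = 0.9998). The effects at 12 h and 3 h were not shown to differ (difference 0.23, 95% interval -0.09 to 0.55, adjusted p = 0.261). The mock arrays of 12 h all lay below those of 3 h, by 0.18 on average, which holds in this direction for 11% of all rows (log2 difference -0.18, adjusted p = 0.573). The DEX arrays differed by 0.05 between 12 h and 3 h (adjusted p = 0.709). Hence at 12 h the mock group was the lowest of the 4, and the 3 others overlapped with their neighbors.

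**Figure D2:**
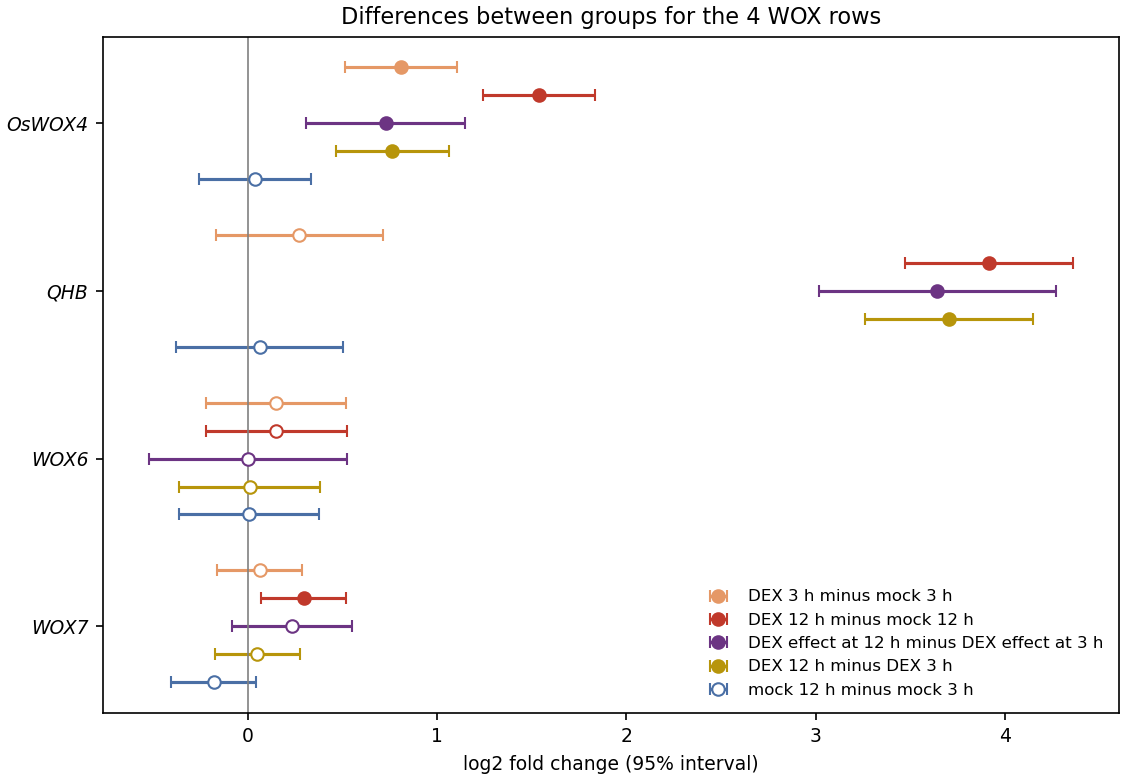
Log2 difference of each WOX gene (horizontal axis) in the comparisons of the limma fit, with its 95% interval; filled symbols passed at an adjusted p under 0.05 and hollow ones did not. The intervals of *OsWOX4* and *QHB* at 12 h lay far from 0, and those of *WOX6* crossed it in every comparison.

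The rows differed in spread. The SD of log2 values within groups was 0.27 for *QHB*, 0.22 for *WOX6*, 0.16 for *OsWOX4* and 0.10 for *WOX7*, and the median over all rows was 0.19. *WOX6* and *WOX7* were dim in all groups, with *WOX6* at the 10.7 to 22.8 percentile of the rows of an array and *WOX7* at most at the 23.7 percentile. With 3 arrays against 3, an exact two-sided permutation test of a single gene has 20 splits and cannot go below 0.1, which it gave for *OsWOX4* at both times and for *QHB* and *WOX7* at 12 h. At 3 h it gave 0.2 for *QHB*, 0.5 for *WOX6* and 0.4 for *WOX7*, and at 12 h 0.4 for *WOX6*.

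**Figure D3:**
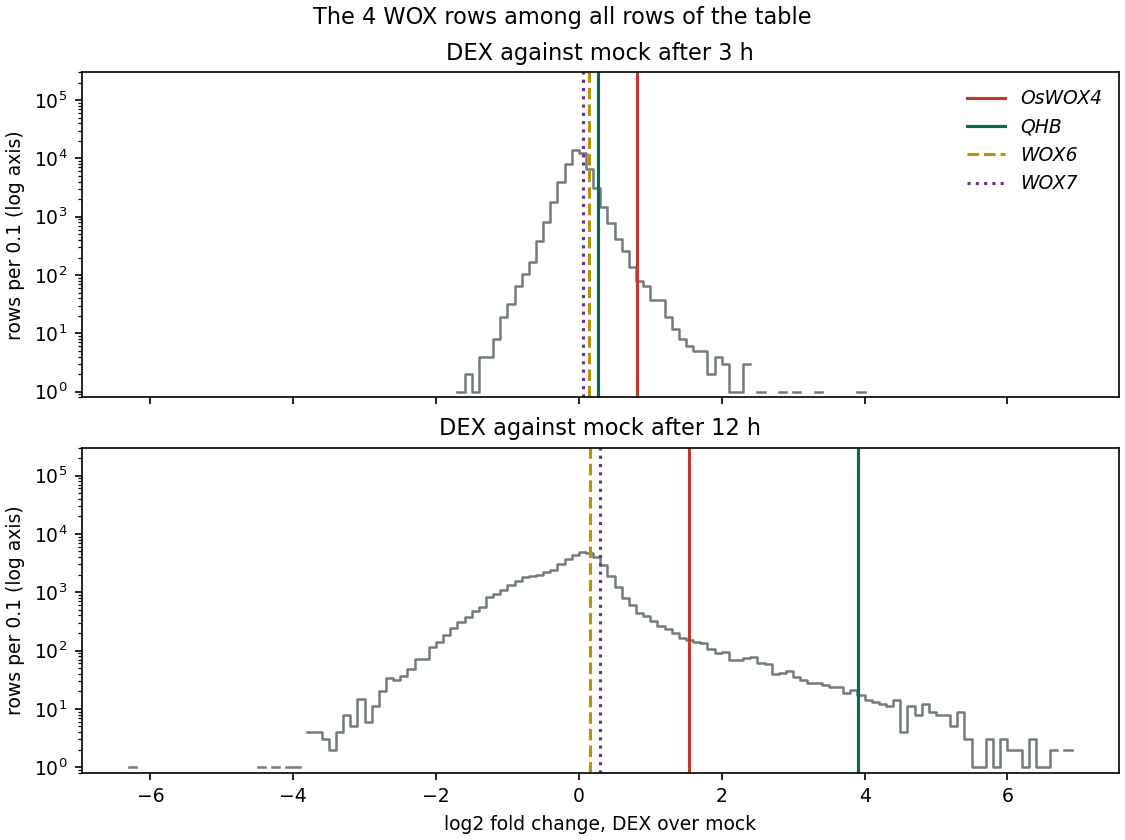
Number of rows (log axis) by log2 fold change, DEX over mock, in steps of 0.1 at each time, with vertical lines at the WOX genes. At 12 h *QHB* lay in the far right tail, and *WOX6* and *WOX7* lay near the peak.

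Over the 12 arrays the log2 values of *OsWOX4* and *QHB* had a Pearson correlation of 0.864. This is a description only, since the arrays share their groups and the 12 h DEX arrays were high in both. The other pairs lay between -0.166, for *WOX6* and *WOX7*, and 0.588, for *OsWOX4* and *WOX7*.

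For each gene, the named genes with the most similar pattern were taken as those with the highest correlation of log2 values over the 12 arrays, among 1553 named rows whose mean log2 signal over all arrays was at or above the 25th percentile of rows. A row that is bright in 1 group and dim in the others can pass through that group. The nearest to *OsWOX4* were *OsYAB3*, a YABBY transcription factor gene (r = 0.969), and *OsPP2C09*, a protein phosphatase gene (0.969). They were followed by *GH3-8*, which encodes an enzyme that conjugates auxin with amino acids (0.967), the homeobox gene *Hox13* (0.967) and *FOR1*, a gene for an inhibitor of pectin-degrading enzymes (0.965). All 5 had a higher mean signal with DEX than with mock treatment at both times, which largely follows from their choice by likeness to this row. *Hox13* had the largest log2 fold changes of the 5, 1.80 at 3 h and 3.83 at 12 h, and *OsYAB3* the smallest, 0.55 and 1.42.

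The genes nearest to *QHB* were *OsCASPL5B1*, encoding a CASP-like membrane protein (r = 0.993), *Beta-ETF*, for an electron transfer flavoprotein subunit (0.990), and *OsWRKY62*, for a WRKY transcription factor (0.989). *GAP1* and *ADC1*, the second for an arginine decarboxylase of polyamine synthesis, had 0.989 each. Their log2 fold changes were between -0.01 and 0.33 at 3 h and between 1.47 and 3.84 at 12 h. *OsWRKY62* had mean signals of 21.6 with DEX and 21.5 with mock treatment at 3 h, and of 312 with DEX and 21.7 with mock treatment at 12 h. Like *QHB* it was dim in 3 groups, so it entered the search through the DEX arrays of 12 h, on which its correlation also rests. A correlation over 0.9 was found in 317 of the named rows for *QHB* and in 47 for *OsWOX4*, so the likeness to *QHB* was shared by many genes.

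**Figure D4:**
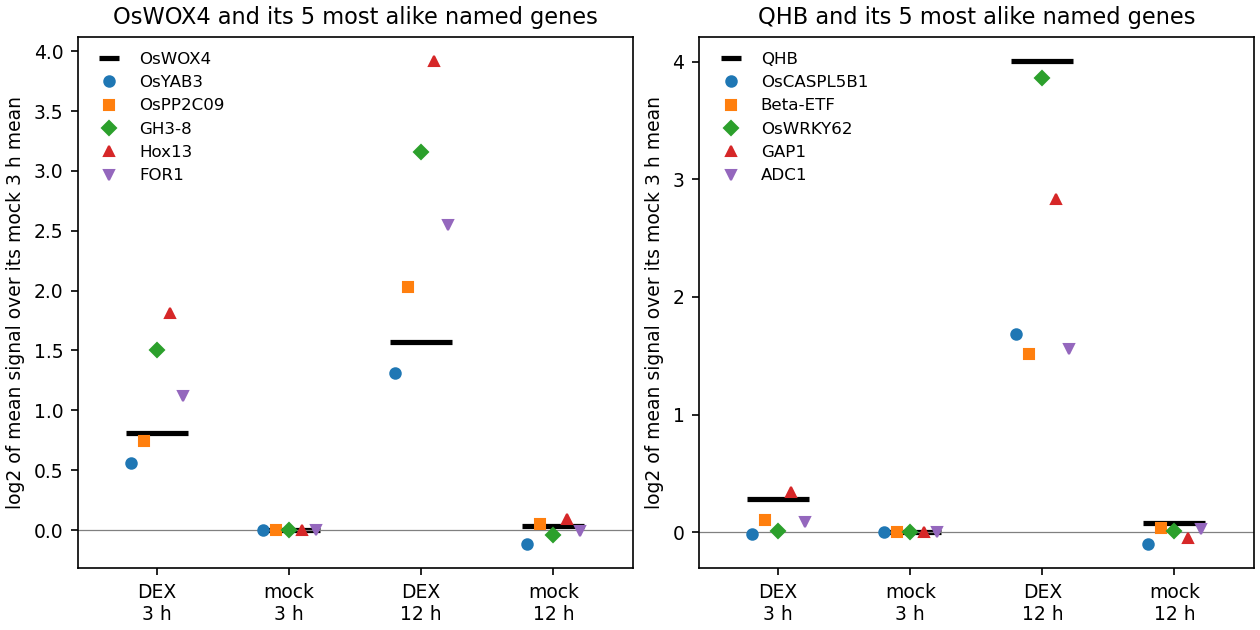
Mean signal of *OsWOX4* (left) or *QHB* (right; black bars) and of the 5 named genes most alike (symbols), as log2 of the ratio to the same gene's mock mean at 3 h, by group. The genes alike to *OsWOX4* stood above their mock level at both times and those alike to *QHB* mainly at 12 h, patterns for which they were chosen.

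For *WOX6* and *WOX7* the likeness was weak. The nearest to *WOX6* was *OsSPX6* (r = 0.703), of a family that senses phosphate, then *KOB1*, the homeobox gene *OSH45*, *OsTLP14* and *OsXylT* (0.586 to 0.662). The nearest to *WOX7* was *Lsi6*, a silicon transporter gene (0.748), then *OsSWEET16*, *DJC27*, *FTIP1* and *AtMAP70-2* (0.711 to 0.746). None of these correlations reached 0.9.

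Other genes of the pathways around WOX proteins were read from lists of symbols. At 12 h, 22.5% of all rows paired with 1 gene passed upwards and 31.6% downwards, and their median log2 fold change was -0.05. The counts of the lists below stand beside these shares. Among 32 other homeobox genes, 10 rose and 14 fell at 12 h (median log2 fold change -0.23). *Hox13*, an HD-Zip gene, had the largest rise (3.83, SE 0.13, adjusted p = 4.36e-09 in limma), and *HB2*, an HD-ZIPIII gene also called *Hox9*, the largest fall (-1.50, SE 0.12, adjusted p = 1.48e-06). At 3 h, when 0.512% of the rows paired with 1 gene passed upwards, 4 of the 32 passed, all upwards: *HOX4*, *Hox13*, *Roc4* and *HOX3*, which are given because they are few and were picked after their values were seen.

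Only 2 regulators of root stem cells were measured, and both fell at 12 h, when 31.6% of rows paired with 1 gene did. *OsSHR1*, which encodes a GRAS protein of the SHORT-ROOT type, changed by -1.53 (SE 0.12, adjusted p = 1.21e-06) and *OsSCR*, of the SCARECROW type, by -1.11 (SE 0.18, adjusted p = 0.000377). These 2 genes are also the only ones to pass among 6 root markers, and *Lsi2*, *NAR2.1*, *OsPT2* and *NAS1*, for transporters, a transporter partner and an enzyme of metal chelation, did not pass. The summed signal of the 6 root markers was 174 to 200 with DEX and 242 to 280 with mock treatment at 12 h. The lower sum with DEX was mostly that of *OsSHR1*, with mean signals of 36.2 with DEX and 104 with mock treatment. Below the lower quartile of rows in every array of the group were 3 of the 6 with DEX and 2 with mock treatment at 12 h. The part of root tissue in the result for *QHB* was not tested.

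Of the CLE signaling genes, *FON1*, a receptor kinase gene of floral meristem size, fell by 0.54 at 12 h (SE 0.12, adjusted p = 0.00325), and *CLE202*, a CLE peptide gene, had a log2 fold change of 0.34 (adjusted p = 0.202). Of 26 cytokinin genes, 4 rose and 11 fell at 12 h (median -0.28, against -0.05 over rows paired with 1 gene, of which 22.5% rose and 31.6% fell). *LOGL7* rose most (1.18, SE 0.11, adjusted p = 5.47e-06) and *LOGL3* fell most (-2.28, SE 0.14, adjusted p = 2.19e-07), both of them genes of the family that makes active cytokinin. Of 5 auxin genes, the transporter gene *OSPIN10a* rose (1.98, SE 0.18, adjusted p = 4.16e-06) and *OsTAR2*, of auxin synthesis, fell (-0.99, SE 0.09, adjusted p = 3.14e-06).

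Beside these results, the markers of the tissue moved too. The 8 measured markers of shoot meristem and leaf primordia each reached above the lower quartile of rows in at least 1 array of every group. At 12 h 2 rose, *OsYAB3* and *OsYAB7*, and 6 fell, against 22.5% and 31.6% of rows paired with 1 gene. The largest fall was that of *OsYAB1* (log2 fold change -2.69, adjusted p = 5.13e-08 in limma). *OsYAB7* also goes by *YAB4*, but *OsYAB4* is a separate gene of the list, and it fell (log2 fold change -0.80, adjusted p = 0.00253 in limma). The summed signal of the 8 markers was 3059 to 3288 with DEX and 1979 to 2158 with mock treatment at 12 h, a sum in which bright rows weigh most. It was higher with DEX through *OsYAB3*, with means of 1817 with DEX and 677 with mock treatment, and *OsYAB7*, with 859 with DEX and 202 with mock treatment. Both green leaf markers, *CAB1R* and *CAB2R*, fell, with sums of 37.8 to 55.5 with DEX and 626 to 690 with mock treatment. Of 4 vascular markers, *hox32* (log2 fold change -0.95, adjusted p = 9.42e-05 in limma) and *OsSUT1* fell, and *CESA4* and *CESA9* did not pass. The summed signal of the 4 was 533 to 748 with DEX and 907 to 1167 with mock treatment. The lower sum with DEX was mostly that of *hox32*, with means of 415 with DEX and 796 with mock treatment. The part of these tissue markers in the results for *QHB* and *OsWOX4* was not tested.

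**Figure D5:**
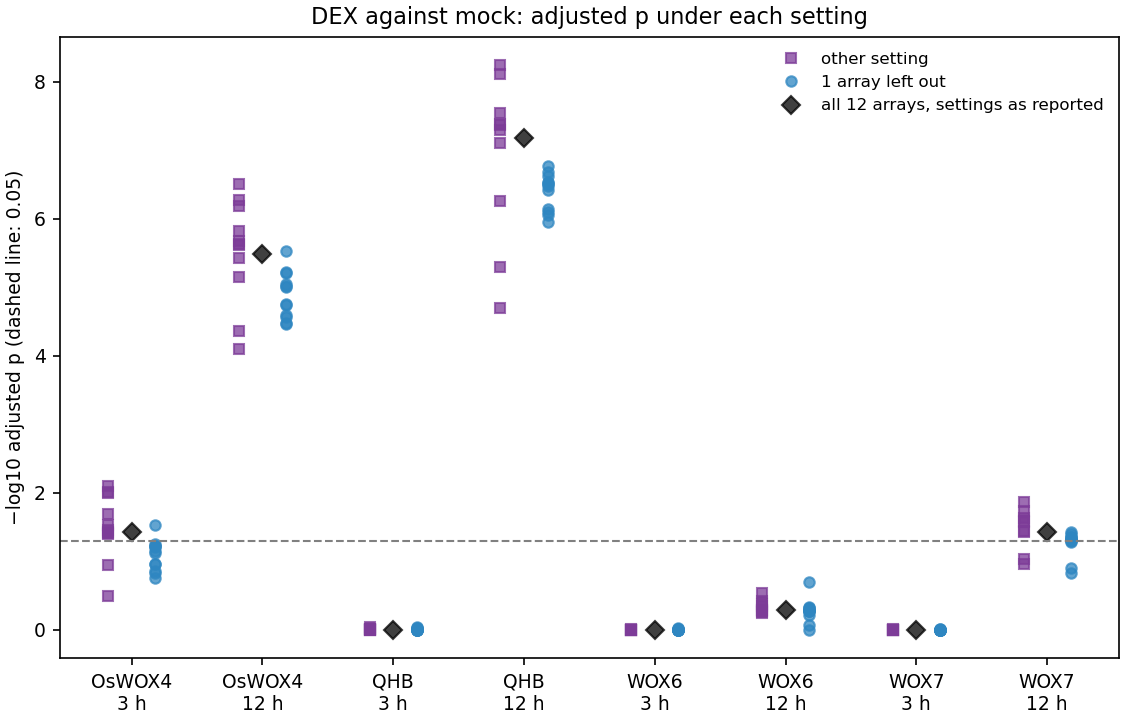
Adjusted p, as -log10 (vertical axis), of DEX against mock for each WOX gene and time, with all 12 arrays (black), with 1 array left out (blue) and under the other settings (purple); the dashed line is 0.05. *QHB* and *OsWOX4* at 12 h stayed above the line throughout, whereas *OsWOX4* at 3 h and *WOX7* at 12 h had points on both sides.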

How the data were processed

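RNA was hybridized to Rice (US) Gene 1.0 ST arrays of 1 color. Per the methods, the authors used Affymetrix Expression Console 1.3 with standard settings for normalization, followed by Subio Platform. The range of the deposited values fits log2 signals, and they were used as such, without detection calls. The methods name an MSU release of the rice genome as the background of their GO analysis; the build behind the array's annotation is not given in the sources used here. Of the 54922 rows, 15829 carry 1 gene in the annotation, 440 carry several, 38653 carry no gene, and 4714 repeat the values of an earlier row. All 15140 genes matched the reference gene table of assembly ASM3414082v1, used for names only.

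Means of the 4 groups were fitted over all 12 arrays with limma 3.58.1 in R 4.3.3 (empirical Bayes variances). Benjamini-Hochberg adjustment ran over all rows, without a filter. The fit was tested on simulated data in which 200 rows were changed by known folds in each comparison. At 3 h it recovered 17.9% of 1.5-fold, 58.2% of 2-fold and 92.4% of 4-fold changes. At 12 h it recovered 11.9%, 68.7% and 100%, so small changes were mostly missed in the simulation. In the real arrays 23593 rows were called at 12 h, which makes the adjusted p less strict than with 200 changed rows. The simulated shares therefore do not give the share of changes missed at 12 h. Tables and figures were made with Python 3.11.15, pandas 2.3.3, NumPy 2.4.6 and matplotlib 3.10.9. Precision is limited by the number of arrays.

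The genes named include the WOX genes, the 5 named genes most correlated with each (mean log2 signal at or above the 25th percentile of rows), and in each list the largest called rise and fall at 12 h. The lists were other homeobox genes, root stem cell and crown root regulators, CLE signaling, cytokinin, auxin, and markers of shoot apex, root, green leaf and vascular tissue. They were matched by patterns on symbols and synonyms, from which wrong matches were removed, and *OsSHR1*, *OsSCR*, *OSH1*, *OSH15* and *hox32* are in more than 1 list. The members and lists were chosen with earlier results of these data known. Alternatives were other scalings, filters on dim rows, other variance models, fewer rows or arrays, a replicate block, and omission of single arrays.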

Additional observations from a re-analysis of the deposited data

Results flagged for a closer look

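The DEX effect differed between the times in a test of the difference itself for 2 of the 4 genes, in both upwards. Of all rows, 10.4% passed the same test upwards. In *OsWOX4* the effect at 12 h exceeded that at 3 h by 0.73 on the log2 scale (adjusted p = 0.0134 in limma), and in *QHB* by 3.64 (adjusted p = 5.58e-06). Groups of 3 arrays were too small for a search for single outlying arrays.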

How the results depend on the processing

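The rises of *QHB* and *OsWOX4* at 12 h, and their larger effects at 12 h than at 3 h, passed in limma under all alternatives that gave a value. At 12 h the adjusted p was 5.68e-09 to 1.98e-05 for *QHB* and 3.12e-07 to 8.07e-05 for *OsWOX4*. The *OsWOX4* call at 3 h was lost with an unmoderated test (0.113) and with only the 6 arrays of 3 h (0.324), and leaving out single arrays gave 0.0292 to 0.173; the other settings gave as low as 0.00804. The *WOX7* call at 12 h was lost with a variance trend (0.110) and with only the arrays of 12 h (0.0926), and leaving out single arrays gave 0.0377 to 0.147. Signs turned, when single arrays were left out, only in differences that never passed: *WOX6* between the effects (adjusted p 0.675 to 0.997), between mock groups (0.899 to 0.993) and between DEX groups (0.489 to 0.980), *OsWOX4* and *QHB* between mock groups (0.892 to 0.970 and 0.840 to 0.986), and *WOX7* between DEX groups (0.552 to 0.933). The rows called at 3 h, 134 in the main fit, were 83 with an unmoderated test, 6 with only the arrays of 3 h, and 62 to 123 without single arrays; those at 12 h, 23593, were 9167 when only rows paired with 1 gene were tested. Of the calls at 12 h, 65.2% were lower, against 56.7% after median centring and 53.7% after quantile normalization. Filters on dim rows removed *WOX6* and *WOX7*, and the filter at the median also *QHB*, so these gave no value; a further row for a gene could not be tried, since each has 1.

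Same-numbered arrays of different groups showed little shared deviation (r from -0.0534 to 0.17 over 12 pairs, 1 of them over 0.1). An array correlated best with its own number in 2 of 12 cases, DEX replicates 2 and 3 of 3 h against mock. Such values cannot show whether same-numbered samples were grown or processed together. With the replicate block the adjusted p was 0.0378 for *OsWOX4* at 3 h, 5.44e-07 for *QHB* at 12 h and 0.0268 for *WOX7* at 12 h, no call of these 4 genes changed, and 95 rows passed at 3 h and 23124 at 12 h.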
